A study of Mus musculus with 6 samples.

Results

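The interstitial matrix and fibroblast genes are 33 genes chosen by name for what they encode. They cover 11 collagen chains, 6 fibre glycoproteins, 4 proteoglycans, 5 matricellular proteins, 4 proteins of matrix assembly and 3 markers of matrix-producing cells. They were found on the array through 42 probes whose transcript accessions belong to them, out of 55681 probes and 21154 named genes. Ctgf appears under its present symbol, Ccn2. Of the 33 genes, 31 were well above background on all 6 arrays and were tested among 15302 genes. Lox and Tnc were not.

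The RNA came from whole kidneys. All 6 animals were male C57BL/6J mice, 3 labelled as iNampt-conditional knockouts and 3 as controls, each on its own single-colour Agilent array. Nampt makes the NAD precursor nicotinamide mononucleotide, and the series title places the study in renal proximal tubules and asks about extracellular matrix deposition in diabetic kidney disease. The labels name no diabetic treatment, and the Cre driver, the deleted exons and the age are not given in the sources used here. The replicates are separate animals as the labels number them. Nampt itself lay at 1.80, 1.50 and 1.53 on the normalised log2 scale in knockouts 1, 2 and 3, against 2.78, 2.59 and 2.65 in controls 1, 2 and 3, a difference of -1.06 ± 0.10 (SE, limma adjusted p = 0.0456). All 10 proximal tubule markers on the list used here were well above background on every array. The share of spots well above background ran from 57.3% to 63.3% over the arrays, with 0 saturated.

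Interstitial matrix fills the space between the tubules and capillaries of the kidney. Fibroblasts and pericytes secrete most of it as fibrillar collagen, coated with finer collagens and small proteoglycans, crosslinked by lysyl oxidases and tied to cells through fibronectin. In kidney fibrosis these cells multiply, some turn into myofibroblasts that contain smooth muscle actin, and matrix builds up. In RNA of whole kidneys, fewer cells of a type and less RNA per cell cannot be told apart.

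None of the tested matrix and fibroblast genes passed the adjusted threshold between knockout and control kidneys. By limma over all genes, 0 of the 31 tested members passed a Benjamini-Hochberg adjusted p of 0.05, where 0.163% of all genes tested did (0.105% higher and 0.0588% lower). The smallest adjusted p among them was 0.265. At an unadjusted p under 0.05 there were 4 members, Col8a1, Thbs2 and Lum higher and Col5a2 lower, which is 12.9% of them beside 12.8% of all genes (6.69% higher and 6.12% lower). The groups did not overlap for 3 members, Col8a1, Thbs2 and Col5a2, which is 9.68% beside 19.5% of all genes (9.04% with the knockouts higher and 10.5% with the knockouts lower). The members' differences had a median of 0.14 on the log2 scale and ran from -0.52 for Col5a2 to 0.80 for Eln, with 25 above 0 and 6 below. Over all genes the median was -0.01 and 47.1% were above 0. Exact permutation of 3 animals against 3 has 0.1 as its smallest two-sided p, so limma was used throughout.

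The members varied far more between animals of 1 group than most genes did, and they varied together. The median SD of a member was 0.23 among the knockouts and 0.40 among the controls, against 0.08 and 0.09 for all genes tested. For 28 of the 31 members the range of the 3 controls was wider than the difference between the groups. Control 3 was the lowest of the 6 arrays for 25 members (80.7%), while over all genes it was the lowest for 15.9% and the highest for 33.2%. Knockout 2 was the highest array for 16 members and control 1 for 13. Among the controls alone, 24 of 31 members were highest in control 1 and lowest in control 3, an arrangement seen in 15.3% of all genes. The exceptions were Col5a2, Col8a1, Eln, Vcan, Ccn2, Acta2 and Pdgfra. The count uses ranks alone, and the controls of Serpinh1, which is counted in, were nearly level (SD 0.01). This arrangement was noticed after the values were seen and is given as a description.

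Measured against the mean of the controls, the median member lay at 0.12, 0.31 and 0.07 in knockouts 1, 2 and 3, and at 0.34, 0.06 and -0.40 in controls 1, 2 and 3. The knockouts thus lay inside the range of the controls, and 13 of 31 members had all 3 knockouts between control 3 and control 1. All 3 knockouts lay above control 3 for 26 members (83.9%, against 25.6% of all genes) and below control 1 for 14 (45.2%, against 26.2% of all genes). Without control 3 the members' median was -0.05, with 12 of 31 above 0. Without control 1 it was 0.33, with 28 above 0. The sign of the median therefore rested on control 3.

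**Figure D1:**
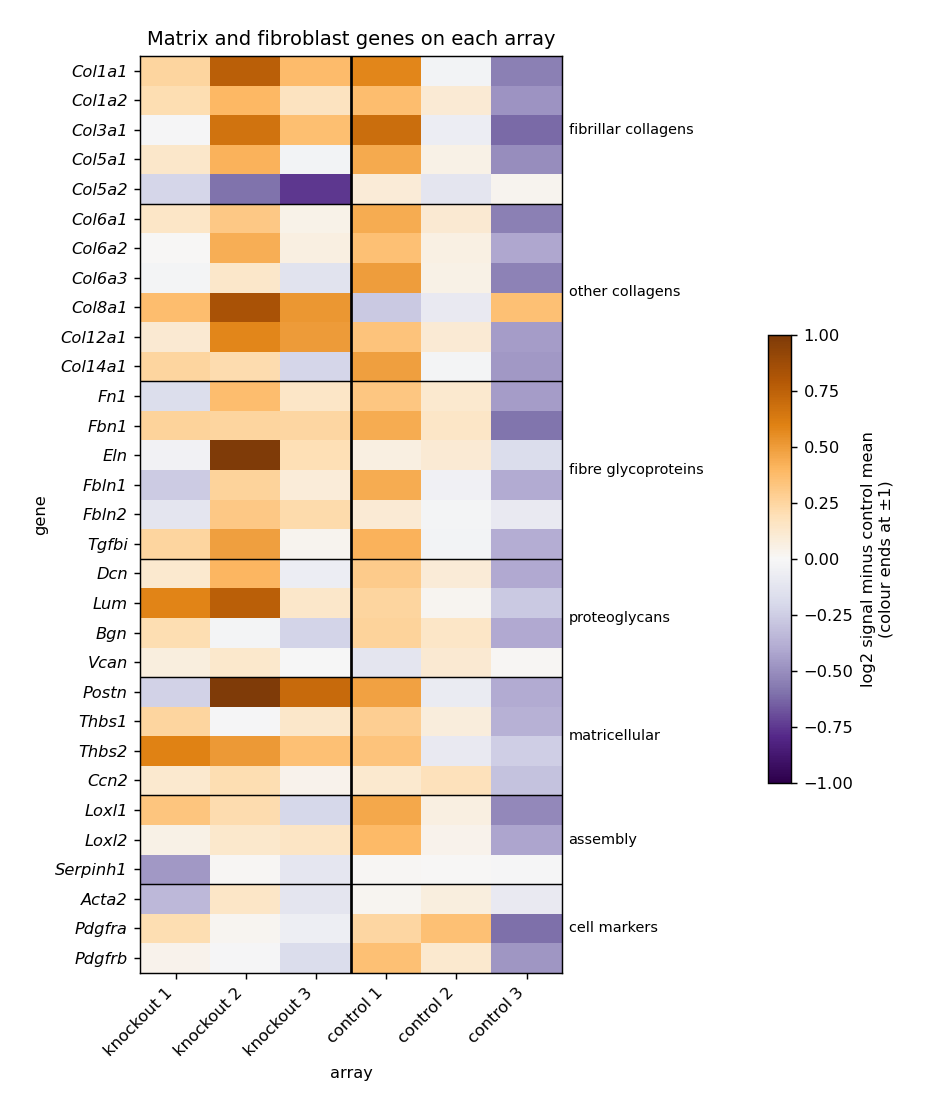
Each row is 1 of the 31 tested genes and each column 1 array, with knockouts left of the line and controls right of it; colour gives the normalised log2 signal minus the mean of the 3 controls, with the scale ending at ±1. The control 3 column is the lowest of the row for 25 genes, and the knockout 2 and control 1 columns are the highest for 16 and 13.

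Among the fibrillar collagens, which form the load-bearing fibres, Col1a1 encodes the main chain of type I collagen. Col1a1 lay at 1.50, 2.01 and 1.63 in knockouts 1, 2 and 3, against 1.83, 1.22 and 0.70 in controls 1, 2 and 3. The groups overlapped, since control 1 lay above knockouts 1 and 3. The difference was 0.46 ± 0.30 (SE, 95% interval -0.27 to 1.19, adjusted p = 0.589), with 0.19 without control 3 and 0.75 without control 1. Its partner chain Col1a2 was at 0.26 ± 0.22 and, as for Col1a1, control 3 held its lowest value and knockout 2 its highest. Without control 3 the difference of Col1a2 was 0.02, and without control 1 it was 0.45. Col3a1, the type III chain that marks young and distensible fibres, lay at 1.70, 2.38 and 2.08 in the knockouts and at 2.41, 1.65 and 1.10 in the controls. Its 2 ends were both controls, with the 3 knockouts between them. The difference was 0.34 ± 0.35 (adjusted p = 0.752), 0.03 without control 3 and -0.015 with slide row as a block.

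Type V collagen sits inside type I fibrils and sets their width, and 2 of its chains were measured. Col5a1 was at 0.17 ± 0.25, with control 3 lowest and control 1 highest. Col5a2 lay at -1.78, -2.17 and -2.33 in knockouts 1, 2 and 3, against -1.48, -1.69 and -1.55 in controls 1, 2 and 3. Every knockout was below every control, and control 3 was not apart from the other controls. The difference was -0.52 ± 0.15 (95% interval -0.88 to -0.16, unadjusted p = 0.0122, adjusted p = 0.265). It was -0.51 without control 3 and -0.47 without control 1. With slide row as a block, which sets knockout 1 alone against the controls beside it on the slide, it was -0.21. Col5a2 was measured with a single probe.

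Among the other collagens, Col8a1 encodes a short network-forming chain made by vascular and mesenchymal cells. Col8a1 lay at -2.45, -1.99 and -2.30 in knockouts 1, 2 and 3, against -3.09, -2.91 and -2.47 in controls 1, 2 and 3. Every knockout was above every control, though knockout 1 exceeded control 3 only narrowly, and here control 3 was the highest control. The difference was 0.57 ± 0.19 (95% interval 0.10 to 1.05, unadjusted p = 0.0247, adjusted p = 0.320), 0.75 without control 3 and 0.37 with slide row as a block. Col12a1, whose product lies on the surface of type I fibrils, was at -2.24, -1.77 and -1.85 in the knockouts and at -2.01, -2.25 and -2.81 in the controls. The groups overlapped, and the difference was 0.40 ± 0.23 (adjusted p = 0.539), with 0.17 without control 3 and 0.11 when slide row was a block.

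The type VI chains, which form beaded filaments around cells, were at 0.17 ± 0.25 for Col6a1, 0.17 ± 0.22 for Col6a2 and -0.01 ± 0.26 for Col6a3. Control 3 was the lowest of the 6 arrays for all 3 chains. Without control 3 the differences were -0.11 for Col6a1, -0.035 for Col6a2 and -0.28 for Col6a3. Col14a1, another fibril-surface collagen, was at 0.08 ± 0.26 by the brighter of its probes and at 0.085 by the other, so both probes gave a difference within its error.

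**Figure D2:**
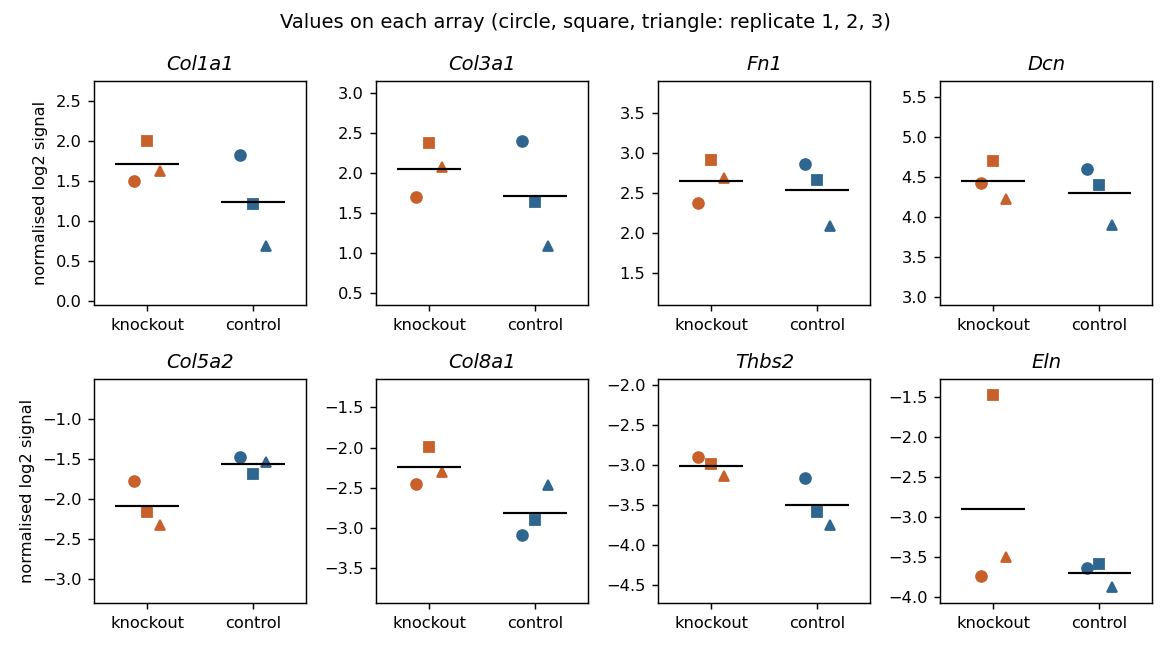
Normalised log2 signal of 8 genes on each array, with knockouts left in orange and controls right in blue; circles, squares and triangles are replicates 1, 2 and 3, horizontal lines are group means, and every panel spans the same 2.8 log2 units. Col1a1, Col3a1, Fn1 and Dcn share a low control 3, Col5a2, Col8a1 and Thbs2 have groups that do not overlap, and Eln rests on knockout 2.

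The bases before the transcription start of 4 members are shown, as examples with and without the shared arrangement. Col1a2, Col3a1 and Thbs2 follow that arrangement, with control 3 the lowest control, and Col8a1 departs from it. Both Col8a1 and Thbs2 have groups that do not overlap. Each line gives the 150 bases before the start, 5′ to 3′, from RefSeq on build GRCm38.p6, at chr6:4505468-4505617, plus strand for Col1a2, chr1:45311388-45311537, plus strand for Col3a1, chr16:57754738-57754887, minus strand for Col8a1 and chr17:14694263-14694412, minus strand for Thbs2. Capitals mark matches to the TATA box letters TATAAA, the CCAAT box letters CCAAT, the GC box letters GGGCGG and the SMAD element letters CAGAC, searched on both strands. No matches overlapped in these 4 windows.
Col1a2: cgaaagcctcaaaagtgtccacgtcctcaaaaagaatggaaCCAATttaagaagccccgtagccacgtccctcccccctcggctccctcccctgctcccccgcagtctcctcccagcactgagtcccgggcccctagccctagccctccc
Col3a1: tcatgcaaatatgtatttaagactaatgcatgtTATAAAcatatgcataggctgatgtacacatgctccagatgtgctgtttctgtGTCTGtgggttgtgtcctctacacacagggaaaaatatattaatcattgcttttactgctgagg
Col8a1: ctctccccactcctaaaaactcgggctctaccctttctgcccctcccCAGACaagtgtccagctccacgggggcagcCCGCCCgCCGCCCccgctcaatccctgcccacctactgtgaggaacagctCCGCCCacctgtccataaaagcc
Thbs2: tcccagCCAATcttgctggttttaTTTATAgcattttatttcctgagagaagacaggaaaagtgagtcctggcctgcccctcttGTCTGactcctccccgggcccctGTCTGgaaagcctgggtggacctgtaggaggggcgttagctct
Col1a2 held a CCAAT box, Col3a1 a TATA box, Col8a1 a SMAD element and Thbs2 a CCAAT box, all on the strand of the gene. On the opposite strand Col3a1 held a SMAD element, Col8a1 3 GC boxes, and Thbs2 a TATA box and 2 SMAD elements. The RefSeq table held 19 of the 33 members. The TATA letters were in 15.8% of these 19 windows and in 8.1% of the 27025 windows of all genes, the CCAAT letters in 15.8% and 25.3%, the GC box letters in 42.1% and 29.0%, and the SMAD letters in 42.1% and 27.8%. A match describes letters in the window and not a site in use.

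The fibre glycoproteins carry cell adhesion and elasticity. Fn1, which encodes fibronectin, lay at 2.37, 2.90 and 2.68 in knockouts 1, 2 and 3, against 2.86, 2.65 and 2.09 in controls 1, 2 and 3. Control 1 lay next to knockout 2 at the top, so the groups overlapped. The difference was 0.12 ± 0.23 (adjusted p = 0.876), with -0.11 without control 3, -0.01 without knockout 2 and -0.17 with slide row as a block. Eln, the gene of the elastic fibre core protein tropoelastin, lay at -3.74, -1.47 and -3.50 in the knockouts and at -3.64, -3.60 and -3.88 in the controls. Knockout 2 alone stood far apart. Knockout 1 lay among the controls, and knockout 3 was slightly above all of them. The difference of 0.80 ± 0.59 (adjusted p = 0.644) was 0.08 without knockout 2. Eln was dim, at 62.3, 281.1 and 71.1 signal units in knockouts 1, 2 and 3 and at 70.5, 72.2 and 54.2 units in controls 1, 2 and 3, where the lowest signal called above background was 18.6 to 32.2 units.

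Fbn1, whose product fibrillin forms the microfibrils that carry elastin, was at 0.25 ± 0.25. The knockouts were nearly equal for Fbn1, at -0.57, -0.57 and -0.58, while the controls spread over -0.38, -0.69 and -1.42. Tgfbi, a collagen-binding protein gene induced by TGF-beta, lay at 2.30, 2.54 and 2.08 in the knockouts and at 2.47, 2.02 and 1.66 in the controls. It repeated the low control 3, and its difference was 0.26 ± 0.22 (adjusted p = 0.696), with 0.06 without control 3 and 0.47 without control 1. The fibulin genes Fbln1 and Fbln2, whose products bind elastic fibres and basement membranes, were at 0.03 ± 0.24 and 0.14 ± 0.12. Both had signs that turned with slide row as a block, to -0.26 and -0.12, and Fbln1 also turned with quantile normalisation (-0.004) and with normexp and quantile normalisation (-0.014).

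Proteoglycans of the small leucine-rich family coat collagen fibrils. Dcn, the gene of decorin and a common fibroblast marker, lay at 4.42, 4.70 and 4.22 in knockouts 1, 2 and 3, against 4.60, 4.40 and 3.89 in controls 1, 2 and 3. The groups overlapped apart from the low control 3, and the difference was 0.15 ± 0.21 (adjusted p = 0.819), or -0.05 without control 3. Lum, the gene of lumican, lay at -0.80, -0.62 and -1.25 in the knockouts and at -1.13, -1.36 and -1.66 in the controls. Knockouts 1 and 2 were above every control and knockout 3 was below control 1. Its difference of 0.49 ± 0.20 (unadjusted p = 0.0486, adjusted p = 0.388) was positive under all 17 alternatives, from 0.36 to 0.67.

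Bgn, the gene of biglycan, was at -0.01 ± 0.20, at 0.21 with slide row as a block and at -0.21 without control 3. Vcan, the gene of the large hyaluronan-binding proteoglycan versican, lay at -1.31, -1.26 and -1.40 in the knockouts and at -1.52, -1.28 and -1.38 in the controls. It was the steadiest of the tested members in its error, with a difference of 0.07 ± 0.08 (95% interval -0.12 to 0.25, adjusted p = 0.777). On this probe control 3 did not stand apart. A second Vcan probe, for another transcript and dimmer, was at 0.40 ± 0.54. There control 3 was the lowest array, at -5.04, against -3.61 and -3.28 in controls 1 and 2.

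**Figure D3:**
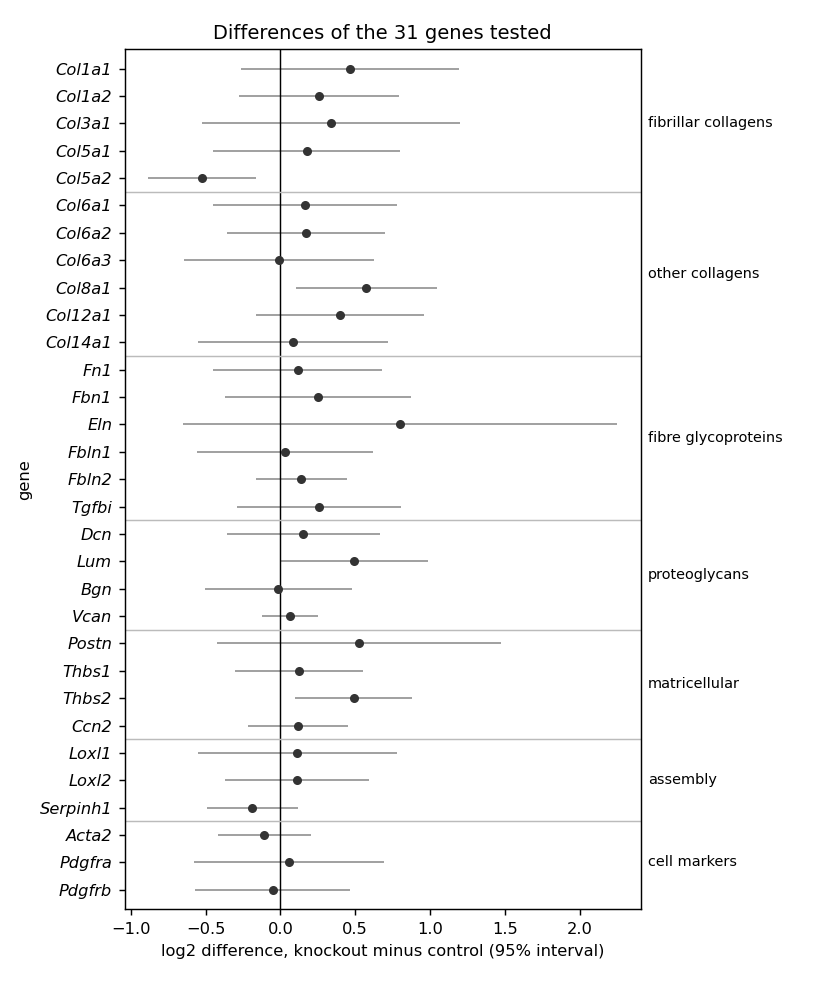
Log2 difference, knockout minus control, of the 31 tested genes in the order of their roles; points are limma estimates and bars their 95% intervals. The intervals of Col5a2, below 0, and of Col8a1, Thbs2 and Lum, above 0, leave out 0 before any adjustment, and Eln has the widest.

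Matricellular proteins signal to cells rather than bear load. Thbs2, the gene of the thrombospondin that restrains vessel growth, lay at -2.90, -2.98 and -3.14 in knockouts 1, 2 and 3, against -3.16, -3.59 and -3.74 in controls 1, 2 and 3. Every knockout was above every control, with knockout 3 and control 1 nearly level. The difference was 0.49 ± 0.16 (95% interval 0.10 to 0.88, unadjusted p = 0.0223, adjusted p = 0.314). It kept its sign under all 17 alternatives, from 0.19 with normexp and quantile normalisation to 0.66 without control 1. Thbs1, the related gene whose product can activate latent TGF-beta, was at 0.12 ± 0.17, and at -0.06 without control 3.

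Postn, the gene of periostin, a protein that accumulates in injured kidney, lay at -3.32, -1.99 and -2.39 in the knockouts and at -2.62, -3.18 and -3.49 in the controls. Knockouts 2 and 3 were the highest arrays, and knockout 1 lay between controls 2 and 3. The difference was 0.53 ± 0.39 (adjusted p = 0.640), 0.24 without knockout 2 and -0.23 with slide row as a block. Ccn2, also called Ctgf, encodes connective tissue growth factor, a TGF-beta target. Its values were 4.19, 4.28 and 4.10 in the knockouts and 4.19, 4.25 and 3.77 in the controls. Apart from control 3 the arrays lay close together, and the difference was 0.12 ± 0.14 (adjusted p = 0.773), or -0.03 without control 3.

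Tnc, the gene of tenascin-C, was not tested. Its brighter probe was well above background in knockout 1 only, at 33.6, 35.9 and 27.2 signal units in knockouts 1, 2 and 3 and at 16.9, 17.7 and 6.8 units in controls 1, 2 and 3. No fold is given. Each control lay below the lowest signal called above background on its array, and the knockouts lay near that signal on theirs.

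The assembly group crosslinks and folds collagen. Loxl2, a lysyl oxidase-like crosslinking enzyme gene, lay at 0.34, 0.42 and 0.45 in knockouts 1, 2 and 3, against 0.68, 0.33 and -0.12 in controls 1, 2 and 3. The knockouts were close together inside the range of the controls, and the difference was 0.11 ± 0.20 (adjusted p = 0.860). Its other probes were at 0.20 ± 0.17 and 0.39 ± 0.15, so the size differed between probes while all 3 were positive. Loxl1, which crosslinks elastin, was at 0.11 ± 0.27. Serpinh1, the gene of the collagen chaperone HSP47, lay at 2.80, 3.28 and 3.15 in the knockouts and at 3.28, 3.27 and 3.25 in the controls. The controls agreed within an SD of 0.01, control 3 included, and knockout 1 was the low array. Its difference was -0.19 ± 0.12 (adjusted p = 0.602), with -0.05 without knockout 1, -0.29 without knockout 2 and -0.47 when the row on the slide was a block. Over its alternatives the adjusted p lay between 0.149, in that fit, and 0.802. Lox itself was well above background in knockouts 1 and 3 and controls 1 and 2 by its brighter probe, and on no array by the other, and was not tested.

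The 3 cell markers gave differences close to 0, at a median of -0.05. Pdgfra, a receptor gene that marks fibroblasts, lay at 1.04, 0.85 and 0.77 in knockouts 1, 2 and 3, against 1.07, 1.19 and 0.23 in controls 1, 2 and 3. Pdgfrb, which marks pericytes and other stromal cells, lay at 1.11, 1.06 and 0.90 in the knockouts and at 1.43, 1.19 and 0.60 in the controls. For both genes the knockouts lay between control 3 and the other controls. The differences were 0.06 ± 0.26 for Pdgfra (95% interval -0.58 to 0.69) and -0.05 ± 0.21 for Pdgfrb (-0.57 to 0.47), and -0.24 and -0.29 without control 3. Acta2, the smooth muscle actin gene that also marks myofibroblasts, lay at 2.50, 2.98 and 2.71 in the knockouts and at 2.85, 2.90 and 2.75 in the controls. Knockout 1 was the lowest array and knockout 2 the highest, and the difference was -0.11 ± 0.13 (adjusted p = 0.788), with 0.01 without knockout 1 and -0.34 with slide row as a block.

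Other matrix genes were also mostly low in control 3 and high in control 1. Of 41 further matrix genes listed by name, 33 were tested and 0 passed over all genes. At an unadjusted p under 0.05 there were 4 higher and 1 lower, where 6.69% of all genes were higher and 6.12% lower. Among the controls, control 3 was lowest for 31 of the 33 and control 1 highest for 27, against 26.0% and 29.1% of all genes. Their median difference was 0.10. The gene furthest from 0 was Ltbp2, which encodes a microfibril protein, at -1.86, -1.15 and -1.17 in knockouts 1, 2 and 3, against -3.17, -4.30 and -4.43 in controls 1, 2 and 3. Every knockout was above every control, and the difference was 2.57 ± 0.38 (adjusted p = 0.102). Ltbp2 was dim in controls 2 and 3, below the lowest value of the dim Eln (-3.88), which limits the precision of this difference. Mfap4, of elastic microfibrils, was at 0.58 ± 0.22, Podn, of the small leucine-rich family, at 0.23 ± 0.07 and Aspn, the asporin gene, at -0.52 ± 0.19.

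Genes for collagen folding and trimming had a median difference near 0. Of 27 listed, 26 were tested, 13 were above 0, the median difference was 0.00 and 0 passed over all genes. Control 3 was the lowest control for 12 of the 26 and control 1 the highest for 10, and the difference from the matrix genes was not tested. At an unadjusted p under 0.05 there were 4, all lower, namely the collagen prolyl and lysyl hydroxylase genes P4ha2 at -0.23 ± 0.06, Plod2 at -0.21 ± 0.08 and Plod3 at -0.13 ± 0.05, and Mia3, which exports procollagen from the endoplasmic reticulum, at -0.12 ± 0.05. Their adjusted p lay between 0.226 and 0.371.

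Genes of the TGF-beta and platelet-derived growth factor axis, the main inducers of matrix genes, numbered 19, and 0 passed over all genes. Itgb8, an integrin gene whose product activates latent TGF-beta, was at -0.24 ± 0.06, Smad7, an inhibitor of the pathway, at -0.19 ± 0.06 and the receptor gene Tgfbr2 at 0.13 ± 0.06. Their adjusted p lay between 0.252 and 0.415, and the list's median was 0.01.

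Markers of cell types that could carry these transcripts also varied between arrays. The 3 members that mark cells had medians of 0.03, 0.02 and -0.12 in knockouts 1, 2 and 3 and of 0.24, 0.12 and -0.47 in controls 1, 2 and 3. A list of 15 further fibroblast markers shared Dpt and Mfap5 with the further matrix genes. Of its 15 markers, 14 were tested and 13 were above background on all arrays. Their medians against the control mean were 0.07, 0.22 and 0.02 in knockouts 1, 2 and 3 and 0.16, -0.01 and -0.12 in controls 1, 2 and 3, with control 3 the lowest control for 7 of 14 and control 1 the highest for 10. Smooth muscle and pericyte markers ran from -0.04 to 0.10 in the knockouts and from -0.13 to 0.07 in the controls, with 11 of 12 tested, Lmod1 being dim. Endothelial markers stayed between -0.04 and 0.02 in the knockouts and -0.05 and 0.05 in the controls. The 10 macrophage markers lay at 0.28, 0.39 and 0.24 in the knockouts and at 0.21, -0.08 and -0.15 in the controls, with control 3 the lowest control for 8 and control 1 the highest for 9. At an unadjusted p under 0.05, 7 of these 10 were higher, where 6.69% of all genes were, and 0 passed over all genes. The part of these cell types in the members' values was not tested.

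**Figure D4:**
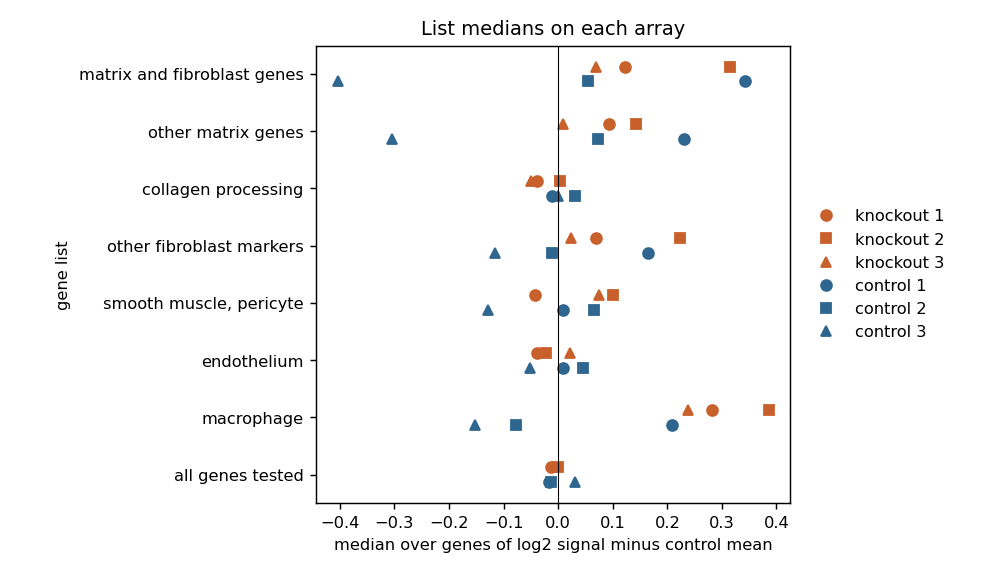
Median over each gene list of the normalised log2 signal minus the mean of the 3 controls, 1 point per array, with knockouts in orange above controls in blue. Control 3 lies lowest and control 1 highest for the matrix and fibroblast genes and for the other matrix genes, with all 3 knockouts between them, while the medians of all genes stay between -0.02 and 0.03.

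The arrays shared 1 slide and 1 scan. Knockouts 2 and 3 occupied the second row of the slide, and knockout 1 shared the first row with all 3 controls. Within the first row, knockout 1 stood beside the controls at a members' median of 0.12, with 21 of 31 members above 0. Row and group cannot be fully told apart, since no control lay in the second row. Control 3 was near the other controls in its share of spots above background, 61.9%, and in its lowest signal above background, 18.6 units. Its 75th percentile, used for scaling, was 9.64 on the log2 scale, against 9.78 and 9.77 in controls 1 and 2 and 9.61 to 9.70 in the knockouts. It was also the highest array for 33.2% of all genes, against 9.43% to 15.3% for each other array. Whether the low control 3 came from the array or the animal was not tested.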

How the data were processed

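Total RNA of 6 kidneys was labelled with Cy3, per the labels' protocols, 1 array per animal. Spot intensity was extracted by the authors in Feature Extraction 10.7.1.1 (array build mm9), per the file headers, with background subtraction and detrending on the array. The deposited value table gives ratios, each of which equalled the signal over a constant of each array, within 1%, for all 13934 to 13936 probes compared per array.

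Processed signals were put on the log2 scale, outlier spots left out, spots of a probe averaged and each array's 75th percentile subtracted. A probe was kept where every array of either group had it well above background, and for each gene the kept probe with the highest mean was used. Accessions were named through the RefSeq table of GRCm38.p6, which named 28026 probes. Members and lists were chosen with earlier results of these data known. The group difference, knockout minus control, was fitted in limma 3.58.1 under R 4.3.3, group as the only term, Benjamini-Hochberg over 15302 genes at 0.05. The fit was tested on simulated data. Values on every array are given for the 2 members of smallest p in each role group, for Col1a1, Col3a1, Fn1, Dcn, Acta2, Pdgfra, Pdgfrb and Ccn2, and for Fbn1, which was chosen after its values were seen. Of the other lists, up to 4 genes of smallest p are named, and 1 such gene is not reported here. The planned normexp alternative used median spot signals. Plots used Python 3.11.15, pandas 2.3.3 and matplotlib 3.10.9.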

Additional observations from a re-analysis of the deposited data

How the results depend on the processing

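Under all 17 alternatives 0 of the tested members passed, and the members' median ran from 0.08 to 0.17 in the 11 that kept every array. Leaving out each array in turn moved it from -0.05 to 0.33, and it was below 0 only without control 3 (-0.049). Over all genes 25 passed, and the count was 7 with quantile normalisation, 77 with no filter on dim probes, 56 with a trended and robust variance, 85 with array weights, 16 with slide row as a block and 0 to 93 without 1 array. With the replicate block it was 0 (1633 at an unadjusted p under 0.05). The labels state no pairing of the animals. Over all genes, deviations of same-numbered arrays correlated at 0.104, -0.096 and -0.026, which cannot show whether the replicate numbers pair the animals. The block changed no call among the members, but it lowered the SE of some and raised that of others. The SE of Loxl1 was 0.271 in the main fit and 0.105 with the block, and that of Postn 0.388 and 0.432. Of 527 values of single members under the alternatives, 0 passed and 40 turned sign, 26 of them by leaving out 1 array, and 10 members never turned. With slide row as a block these were Col3a1 (-0.015), Fn1 (-0.168), Eln (-0.034), Fbln1 (-0.26), Fbln2 (-0.119), Bgn (0.207), Postn (-0.228) and Pdgfrb (0.032). With array weights they were Col14a1 (-0.01), Loxl1 (-0.029) and Pdgfra (-0.161), with quantile normalisation Fbln1 (-0.004), and with normexp and quantile normalisation Fbln1 (-0.014) and Col6a3 (0.034). The cause of these turns was not tested. Leaving out arrays in turn gave ranges of -0.077 to 0.401 for Col5a1, -0.11 to 0.387 for Col6a1, -0.035 to 0.348 for Col6a2, -0.281 to 0.242 for Col6a3, -0.149 to 0.329 for Col14a1 and -0.108 to 0.279 for Fn1. They were -0.042 to 0.474 for Fbn1, -0.168 to 0.253 for Fbln1, -0.049 to 0.303 for Dcn, -0.215 to 0.118 for Bgn, -0.059 to 0.269 for Thbs1 and -0.03 to 0.211 for Ccn2. They were -0.148 to 0.342 for Loxl1, -0.099 to 0.302 for Loxl2, -0.23 to 0.011 for Acta2, -0.244 to 0.237 for Pdgfra and -0.289 to 0.125 for Pdgfrb. The number of arrays limits the precision, and Eln, Postn, Thbs2 and Col8a1 were dim.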

Other observations

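Other marker lists gave the following values against the control mean, none with a member that passed over all genes. Adipocyte markers lay at -1.50, -1.89 and 0.53 in knockouts 1, 2 and 3 and at 0.48, -0.61 and 0.06 in controls 1, 2 and 3. These fat-cell transcripts varied between animals of both groups. The list's median difference was -0.99, with 0 of 7 above 0, though knockout 3 had the highest list median of the arrays. Control 3, the lowest array for most matrix genes, was the lowest control for 0 of the 7 adipocyte markers tested, and control 1 was the highest control for 7 of 7. Erythroid markers lay at 0.02, -0.95 and -1.08 in the knockouts and at 0.20, -0.02 and -0.18 in the controls, with control 3 the lowest control for 5 of 5. Urothelial markers, of the lining of the renal pelvis, lay at -0.43, -0.06 and 0.67 in the knockouts and near 0 in every control. Their median difference was 0.0, with 4 of 8 above 0. Krt20 was furthest from 0, at 1.48 ± 0.59 (limma adjusted p = 0.383), and Krt15 was lower, at -0.23 ± 0.09. Lymphoid markers lay at 0.06, -0.02 and 0.12 in the knockouts and at 0.30, -0.15 and -0.08 in the controls, with control 1 the highest control for 7 of 7. Mesangial, podocyte, proximal tubule and distal nephron lists had median differences of 0.05, 0.05, 0.02 and -0.12. The skeletal muscle list had 3 of 6 members tested (median 0.15) and the adrenal list 2 of 7 (median 0.02), with Cyp11a1, Cyp11b1 and Cyp11b2 above background on no array.

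Tubular injury markers had a median difference of 0.50, with 8 of 9 tested and 0 that passed over all genes. At an unadjusted p under 0.05 there were 5, all higher, where 6.69% of all genes were higher. The list's medians were 0.18, 0.72 and 0.66 in knockouts 1, 2 and 3 and 0.11, 0.02 and -0.18 in controls 1, 2 and 3. For Krt18, Krt19, Vcam1 and Vim, knockout 1 lay below the highest control. For the other markers tested, every knockout was above every control, as it was for 9.04% of all genes. For Cd44 this held only narrowly, with knockout 1 at -1.41 and control 1 at -1.42. By list medians, each knockout lay above each control, while for the matrix genes the medians of the knockouts lay within the range of the controls. Whether the matrix and injury genes differ in this was not tested.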
